A study of Mus musculus with 6 samples.

Results

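Kinetochore, spindle checkpoint and other mitotic genes were examined by complex in RPM mouse lung tumors, which model small cell lung cancer. The members were 50 named genes, taken by symbol from a table of 22477 genes, and all 50 had a row and passed the filter on low counts. The mice carry the alleles Rb1 fl/fl, p53 fl/fl and Myc lsl/lsl T58A (genotype given as Rb1/Trp53/MycT58A), and the described cohort received the adenovirus Ad5CGRP-Cre into the trachea at 8 weeks of age. The virus puts Cre under a CGRP promoter, which is active in pulmonary neuroendocrine cells, so that recombination is expected in few lung cells. Poly(A)-selected RNA of 4 RPM lung tumors (tumors 3, 4, 5 and 6) was compared with 2 samples of normal lung tissue (normal 1 and 2), each from another mouse. The labels give the normal samples the same genotype and the same virus. They assign these samples to none of the drug arms of the study (vehicle, entinostat, anti-PD-1 antibody or both), and they give no age at sampling.

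At mitosis each chromosome is compacted by condensin and grips spindle microtubules through its kinetochore, a protein assembly built on centromeric chromatin that holds the histone variant CENP-A. Unattached kinetochores feed the spindle checkpoint, which holds back the anaphase-promoting complex (a ubiquitin ligase) until every chromosome is attached. That ligase then marks securin and cyclin B for destruction, separase cuts cohesin, and cytokinesis divides the cell. Most of these genes are transcribed in G2 and mitosis and are shut off in resting cells, such as most cells of an adult lung. In small cell lung cancer the fraction of cycling cells is high.

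Many G2/M genes are known to carry a short element near the transcription start, the cell cycle genes homology region (CHR), which the MuvB complex binds, often with CCAAT boxes upstream that bind NF-Y. The windows printed here run from 250 bases before to 50 bases after the start, as RefSeq gives them on GRCm38.p6, and were available for 44 of the 50 genes. They are shown for 5 genes that rose at least 16-fold, Cdc20, Ube2c, Plk1, Cenpa and Hmmr. Also shown are 2 members that rose about 2-fold, Bub3 and Fzr1. The 5 come from the anaphase, kinase, centromere and spindle assembly groups below and from no other, and each holds a CHR match. The choice was made after their values were seen. Capitals mark the CHR words TTTGAA or TTCGAA and the CCAAT word, each on either strand (TTCAAA and ATTGG read from the other side), and overlapping words such as CCAATTGG count as 2. The windows lie at chr4:118437294-118437593 (minus strand, Cdc20), chr2:164769679-164769978 (plus, Ube2c), chr7:122159185-122159484 (plus, Plk1), chr5:30666636-30666935 (plus, Cenpa), chr11:40733388-40733687 (minus, Hmmr), chr7:131560120-131560419 (plus, Bub3) and chr10:81378321-81378620 (minus, Fzr1).
Cdc20: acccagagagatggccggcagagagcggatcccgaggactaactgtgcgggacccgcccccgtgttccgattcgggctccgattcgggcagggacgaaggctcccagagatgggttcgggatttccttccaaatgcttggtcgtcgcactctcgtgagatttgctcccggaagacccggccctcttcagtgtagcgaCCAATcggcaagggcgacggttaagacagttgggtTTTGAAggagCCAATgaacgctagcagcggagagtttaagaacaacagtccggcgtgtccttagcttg
Ube2c: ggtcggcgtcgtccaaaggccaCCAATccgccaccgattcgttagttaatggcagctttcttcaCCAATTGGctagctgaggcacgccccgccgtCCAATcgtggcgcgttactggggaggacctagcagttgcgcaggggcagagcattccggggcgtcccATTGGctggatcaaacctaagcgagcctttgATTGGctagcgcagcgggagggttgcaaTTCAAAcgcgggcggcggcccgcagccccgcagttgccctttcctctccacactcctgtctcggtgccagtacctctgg
Plk1: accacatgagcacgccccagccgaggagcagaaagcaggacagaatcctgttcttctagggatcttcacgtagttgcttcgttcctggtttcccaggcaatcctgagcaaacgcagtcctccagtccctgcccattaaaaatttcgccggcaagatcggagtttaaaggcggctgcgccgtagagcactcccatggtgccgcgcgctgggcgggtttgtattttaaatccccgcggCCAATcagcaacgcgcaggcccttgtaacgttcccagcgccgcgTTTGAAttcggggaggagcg
Cenpa: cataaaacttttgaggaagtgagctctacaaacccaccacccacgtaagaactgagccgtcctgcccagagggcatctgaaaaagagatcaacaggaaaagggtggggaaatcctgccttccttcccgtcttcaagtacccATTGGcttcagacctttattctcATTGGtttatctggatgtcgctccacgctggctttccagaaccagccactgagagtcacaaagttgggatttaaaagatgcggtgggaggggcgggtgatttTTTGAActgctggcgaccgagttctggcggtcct
Hmmr: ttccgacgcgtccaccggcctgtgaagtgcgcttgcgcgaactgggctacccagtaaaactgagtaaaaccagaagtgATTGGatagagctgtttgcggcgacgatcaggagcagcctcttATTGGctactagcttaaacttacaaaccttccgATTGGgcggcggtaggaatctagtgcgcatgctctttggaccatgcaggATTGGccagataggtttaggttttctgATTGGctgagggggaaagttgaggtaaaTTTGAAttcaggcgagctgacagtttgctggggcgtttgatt
Bub3: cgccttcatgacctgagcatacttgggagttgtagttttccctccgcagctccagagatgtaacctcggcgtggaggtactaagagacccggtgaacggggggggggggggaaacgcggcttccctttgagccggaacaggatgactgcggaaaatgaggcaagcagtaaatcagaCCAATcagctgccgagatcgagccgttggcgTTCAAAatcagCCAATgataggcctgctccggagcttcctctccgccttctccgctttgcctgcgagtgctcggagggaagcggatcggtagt
Fzr1: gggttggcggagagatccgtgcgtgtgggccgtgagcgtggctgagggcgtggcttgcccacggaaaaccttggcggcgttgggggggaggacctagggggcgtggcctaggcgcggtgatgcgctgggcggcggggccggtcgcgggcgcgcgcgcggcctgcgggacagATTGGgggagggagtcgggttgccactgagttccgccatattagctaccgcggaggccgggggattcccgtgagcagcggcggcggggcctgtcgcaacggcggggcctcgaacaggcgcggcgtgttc

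A CHR word was present in 27 of the 44 windows (61.4%), against 19.4% of the windows of all 27025 genes in the RefSeq table and 14.2% of the windows of the 13120 tested genes that had one. It began within 50 bases of the start in 23 of the 44, against 5.29% of all windows. In Cdc20 it began 18 bases before the start, in Ube2c 29 bases before it and in Plk1 30 bases after it. CCAAT stood in 32 of the 44 windows (72.7%) against 37.9% of all, with 6 copies in Ube2c and 5 in Hmmr, and 25 windows held both words. Bub3, with a small rise, holds the word and Fzr1 does not. Birc5 and Nuf2, each more than 32-fold higher in tumors, do not hold it either. A match is a run of letters and not a bound site. The window listed for Pttg1 lies inside the RefSeq span of that gene. It is not shown, but it counts among the 44 and among the 17 without a CHR word.

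Of the 50 genes, 49 were higher in tumors and 1, Pttg1, was lower (edgeR quasi-likelihood test, adjusted p under 0.05). The same test called 31.3% of all 18027 genes tested higher and 32.6% lower, so that a call alone is common in this comparison. In 49 of the 50 all 4 tumors stood above both normal libraries, as did 37.4% of all genes tested. The median log2 fold change of the members was 4.13, beside 0.02 over all genes tested, and 43 members rose at least 4-fold and 27 at least 16-fold. Values are given as CPM, read counts scaled to a common library size, on library sizes scaled by TMM, which corrects for composition. Summed over the 50 genes they rose from 602 and 663 CPM in the normal libraries to 5236, 6048, 6172 and 5640 in tumors 3 to 6. In whole tissue, more cycling cells and more RNA per cycling cell cannot be told apart.

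**Figure D1:**
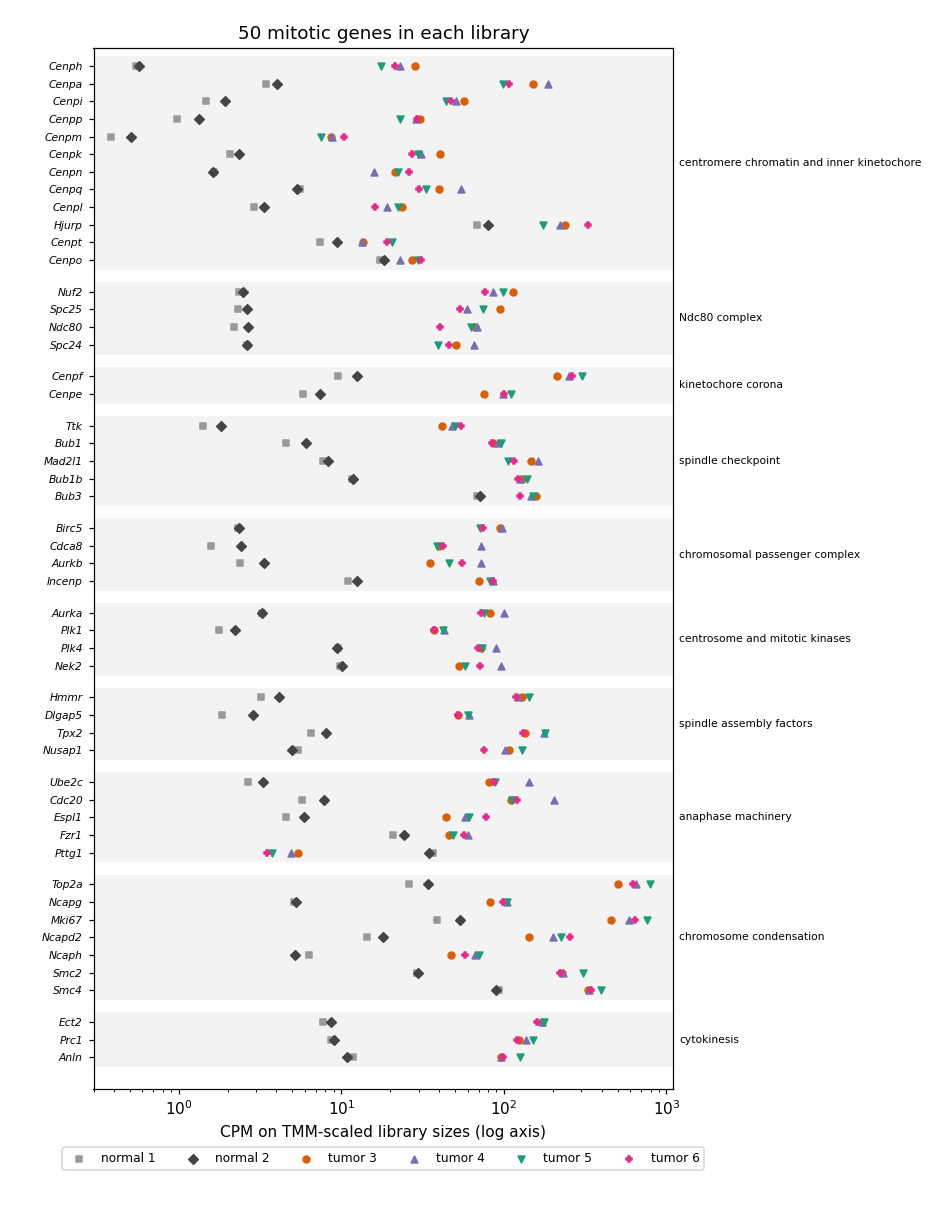
Each row is a member gene and each point its level in a library, in CPM on a log axis, with grey squares and diamonds for the 2 normal libraries and colored symbols for the 4 tumors; genes are grouped by complex or role. The tumors lie to the right of both normal libraries for every gene but Pttg1, where they lie between 3.52 and 5.44 CPM against 34.6 and 36.6.

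Total counts per library ran from 54735438 to 99122494, higher in the normal libraries than in the tumors, and the smallest count of any member in any library was 38. Cell type markers followed the labels: all 10 neuroendocrine markers were higher in tumors, with summed levels of 855 to 1353 CPM against 13.01 to 21.7. All 6 alveolar type 2, 5 alveolar type 1 and 6 endothelial markers were lower, at summed levels of 57.0 to 695, 52.7 to 121 and 50.4 to 81.0 CPM in tumors against 19488 to 21148, 3745 to 4067 and 3037 to 3352. Lower, too, were 5 of 6 club and ciliated markers (75.04 to 307 against 26530 to 29349 CPM), 4 of 6 of fibroblasts and smooth muscle (271 to 858 against 1642 to 1701), 5 of 6 of T and NK cells (1.99 to 4.63 against 17.8 to 22.2), 3 of 5 of B and plasma cells (6.11 to 78.1 against 54.2 to 96.7) and 4 of 6 of macrophages and neutrophils (59.5 to 83.7 against 332 to 370). No marker of these lists was at 0 in all tumors, and the part of the cell makeup in the results was not tested.

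The centromere and inner kinetochore genes rose in 12 of 12 cases, with log2 fold changes from 0.64 to 5.33. Cenpa, the centromeric histone, stood at 3.43 and 4.02 CPM in normal lung and at 151, 187, 98.7 and 108 in tumors 3 to 6, a 36.5-fold rise (log2 fold change 5.19 ± 0.38, SE, adjusted p = 9.41e-05). Cenph, a subunit of the constitutive centromere-associated network that links CENP-A chromatin to the outer kinetochore, went from 0.549 and 0.572 to 28.4, 23.1, 17.5 and 21.6 CPM. Its log2 fold change of 5.33 ± 0.33 was the highest of the 50. Its direct partners in the network, Cenpi and Cenpk, rose 29.2-fold and 14.6-fold, and Cenpm, the fourth subunit of that subcomplex, rose 19.8-fold at only 8.87 ± 1.197 CPM (SD, n = 4). Cenpp rose 24.1-fold and Cenpq 7.20-fold, both of the CENP-O group, while Cenpn and Cenpl, which form a pair that reads CENP-A nucleosomes, rose 13.1-fold and 6.45-fold.

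The 3 smallest rises of this group were those of Hjurp, Cenpt and Cenpo. Hjurp, the chaperone that loads CENP-A, was at 68.9 and 79.4 CPM in normal lung and at 237, 222, 173 and 329 in tumors, a 3.24-fold rise, so that chaperone and histone moved by unequal amounts. Cenpt, which ties the Ndc80 complex to the inner kinetochore, went from 7.46 and 9.36 to 13.6, 13.5, 20.4 and 19.2 CPM (0.99 ± 0.29, adjusted p = 0.0211). Cenpo, the founding subunit of the CENP-O group, went from 17.3 and 18.2 to 27.2, 23.0, 29.8 and 31.0 CPM (0.64 ± 0.20, adjusted p = 0.0255). For both genes every tumor lay above both normal libraries, but the calls rest on few samples. Cenpt missed the threshold without normal 1 (adjusted p = 0.162) or normal 2 (0.0748), and Cenpo without normal 1 (0.167), normal 2 (0.129) or tumor 5 (0.0552) and with total counts in place of TMM (0.0529). Exons of Cenpo, Cenpp, Cenpq and Cenpt overlap a gene on the other strand in GENCODE M21, and the strand setting of the counting is not given in the sources used here, so their values are uncertain. Partners moved both ways. Beside Cenpo, Ptrhd1 was at 6.96 CPM in normal lung and 16.1 in tumors (adjusted p = 0.00611) and Adcy3 at 28.7 and 34.7 (adjusted p = 0.491). Ippk, beside Cenpp, was at 23.7 and 45.6 CPM (adjusted p = 0.0201). Mut, beside Cenpq, was at 105 and 37.8 CPM, and Tsnaxip1, beside Cenpt, at 5.09 and 0.70.

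The 4 subunits of the Ndc80 complex, the rod that binds microtubules at the outer kinetochore, rose together from low levels, nearly equal in CPM. Nuf2 stood at 2.35 and 2.48 CPM in normal lung and at 113, 85.9, 98.3 and 77.0 in tumors (38.8-fold, adjusted p = 3.31e-05). Ndc80 itself stood at 2.18 and 2.68 against 66.5, 68.2, 63.2 and 40.2 CPM, Spc25 rose 28.3-fold and Spc24 19.1-fold. The groups did not overlap for any subunit. Divided by transcript length, the tumor levels were 27.0 ± 5.92 CPM per kb for Ndc80, 38.9 ± 6.55 for Nuf2, 36.8 ± 8.00 for Spc24 and 58.8 ± 15.2 for Spc25 (SD, n = 4), so that the lowest and the highest subunit were little more than 2-fold apart. The corona proteins of the outer kinetochore also rose: Cenpe, the plus-end motor CENP-E, 14.6-fold, and Cenpf, the dynein-linked CENP-F, from 9.55 and 12.5 to 212, 252, 304 and 263 CPM, 23.4-fold.

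All 5 spindle checkpoint genes rose, 4 of them by more than 10-fold. Ttk, the kinase MPS1 at the head of the checkpoint, stood at 1.42 and 1.81 CPM in normal lung and at 41.8, 47.9, 49.8 and 54.9 in tumors (30.0-fold, adjusted p = 3.47e-05). Bub1, the kinase that docks the checkpoint at the kinetochore, rose 16.9-fold, and Mad2l1, whose protein MAD2 captures CDC20, rose 16.5-fold. Bub1b, the gene of BUBR1, was even across tumors, at 130, 125, 139 and 123 CPM against 11.6 and 11.9. Bub3, their shared WD40 partner, which also acts outside mitosis, was at 68.5 and 71.5 CPM in normal lung and at 158, 148, 152 and 126 in tumors, a log2 fold change of 1.06 ± 0.16 (adjusted p = 0.00128). The ratio of Bub1b to Bub3 within a library was thus 0.170 and 0.166 in normal lung and 0.819, 0.848, 0.917 and 0.980 in tumors.

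The chromosomal passenger complex corrects faulty attachments and later directs cytokinesis, and its 4 genes rose. Birc5, the gene of survivin, went from 2.32 and 2.36 to 94.7, 97.8, 71.0 and 74.6 CPM (36.1-fold, adjusted p = 3.3e-05). Cdca8, the gene of borealin, rose 24.1-fold and Aurkb, the kinase of the complex, 18.2-fold. Incenp, the scaffold, was the least changed, from 10.99 and 12.4 to 70.7, 85.3, 82.4 and 86.2 CPM (6.92-fold). Per kb of transcript the tumor levels of Aurkb, Incenp and Cdca8 lay close together at 26.8 ± 8.01, 25.1 ± 2.21 and 29.8 ± 9.77 CPM (SD, n = 4), and Birc5 was at 89.3 ± 14.4.

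Among kinases of the centrosome and mitotic entry, Aurka, which matures the centrosome and the spindle, went from 3.28 and 3.27 to 81.9, 99.97, 75.1 and 71.96 CPM (25.1-fold). Plk1, the kinase that drives mitotic entry and many later steps, rose from 1.77 and 2.23 to 37.0, 42.8, 42.0 and 37.4 CPM (19.9-fold, adjusted p = 3.81e-05). Plk4, the kinase of centriole duplication, rose 7.99-fold, and Nek2, the kinase of centrosome separation, 6.98-fold. Both started higher, at 9.51 ± 0.14 and 9.96 ± 0.25 CPM (SD, n = 2). Nek2 was less even among tumors, at 52.8, 96.3, 57.6 and 71.3 CPM, with tumor 4 above the others. Exons of Plk1 and Nek2 overlap predicted genes of the other strand that have no row in the table.

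Spindle assembly factors rose 4 of 4, each by more than 16-fold. Hmmr, a microtubule-binding protein and hyaluronan receptor, stood at 3.21 and 4.16 CPM in normal lung and at 130, 123, 142 and 119 in tumors. Tpx2, which activates Aurora A and nucleates microtubules, rose 21.3-fold, Dlgap5, the gene of HURP, 23.8-fold, and Nusap1, which bundles microtubules around chromosomes, 19.8-fold. Exons of Nusap1 and Oip5 overlap on opposite strands, and Oip5 was itself at 0.752 ± 0.187 CPM in normal lung and 22.7 ± 1.13 in tumors. For cytokinesis, Ect2, the exchange factor that activates RhoA, was the member most even across tumors at 172, 172, 176 and 159 CPM, against 7.74 and 8.67 in normal lung. Prc1, which bundles the midzone, and Anln, the ring scaffold anillin, rose 15.0-fold and 9.19-fold. Exons of Prc1 overlap those of Rccd1 on the other strand, which was at 5.21 CPM in normal lung and 16.2 in tumors.

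The anaphase genes split. Cdc20, the activator of the anaphase-promoting complex in mitosis and the target of the checkpoint, was at 5.72 and 7.85 CPM in normal lung and at 111, 203, 112 and 121 in tumors (20.1-fold, adjusted p = 0.000175). Ube2c, the ubiquitin-conjugating enzyme that starts chains for that ligase, rose 33.4-fold, from 2.68 and 3.29 to 80.9, 143, 88.1 and 87.4 CPM. Fzr1, the gene of CDH1, the other activator, which works from late mitosis through G1, went from 20.9 and 24.3 to 45.9, 60.3, 48.5 and 57.3 CPM, a log2 fold change of 1.23 ± 0.19 (adjusted p = 0.0015). Within a library, Cdc20 stood at 0.274 and 0.323 of Fzr1 in normal lung and at 2.42, 3.36, 2.31 and 2.11 times Fzr1 in tumors, so that the order of the 2 activators by CPM was turned. Exons of Cdc20, Ube2c and Fzr1 overlap genes of the other strand. Elovl1, beside Cdc20, was at 268 CPM in normal lung and 20.8 in tumors, and Mfsd12, beside Fzr1, at 12.8 and 3.95, each lower where the member was higher. Tnnc2, a skeletal muscle troponin gene beside Ube2c, was at 66.9 CPM in tumor 6 and at most 0.412 in the other libraries, and Ube2c in tumor 6 was level with tumors 3 and 5.

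Pttg1, the gene of securin, was the exception. Securin binds separase and holds it inactive until anaphase. Pttg1 stood at 36.6 and 34.6 CPM in normal lung and at 5.44, 4.93, 3.78 and 3.52 in tumors. All 4 tumors lay below both normal libraries, as they did for 7183 of the 18027 genes tested. The difference was 8.06-fold (log2 fold change -3.01 ± 0.25, adjusted p = 0.000134). Pttg1 stayed lower and past the threshold under all 14 other settings tried. Its partner Espl1, the gene of separase, went the other way, from 4.59 and 5.88 to 43.9, 57.7, 60.7 and 77.2 CPM (11.4-fold). Within a library the ratio of Pttg1 to Espl1 was 7.96 and 5.88 in normal lung and 0.124, 0.0854, 0.0622 and 0.0456 in tumors, a difference in mean log2 ratio of -6.53. Per kb of transcript, Pttg1 had the highest level of the 49 members with a settled length in normal lung (37.5 ± 1.47 CPM per kb, SD, n = 2) and the lowest in tumors (4.66 ± 0.97, n = 4). Of the nearest protein-coding genes of the GRCm38 RefSeq annotation, Slu7, a splicing factor, was at 87.0 and 83.9 CPM in normal lung and at 35.1, 44.3, 46.4 and 42.6 in tumors (log2 fold change -1.02 ± 0.15, adjusted p = 0.00145), and Atp10b was at most 1.38 CPM in every library. C1qtnf2, another neighbour, was also lower, at 12.2 and 15.1 CPM in normal lung and at 1.56, 0.766, 1.04 and 0.763 in tumors (log2 fold change -3.72 ± 0.38, adjusted p = 0.00032). Of all genes tested, 32.6% were called lower. No exon of Pttg1 overlaps another gene in GENCODE M21.

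The ratios of partner genes were chosen after the values were seen. With 2 libraries against 4, an exact two-sided permutation test cannot give less than p = 0.133, the value found for Cdc20 to Fzr1, Pttg1 to Espl1, Bub1b to Bub3 and Smc2 to Smc4. In each of these the groups did not overlap. The ratio of Aurka to its activator Tpx2 was 0.504 and 0.404 in normal lung and 0.604, 0.564, 0.421 and 0.547 in tumors, where the groups overlapped (exact permutation p = 0.267).

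**Figure D2:**
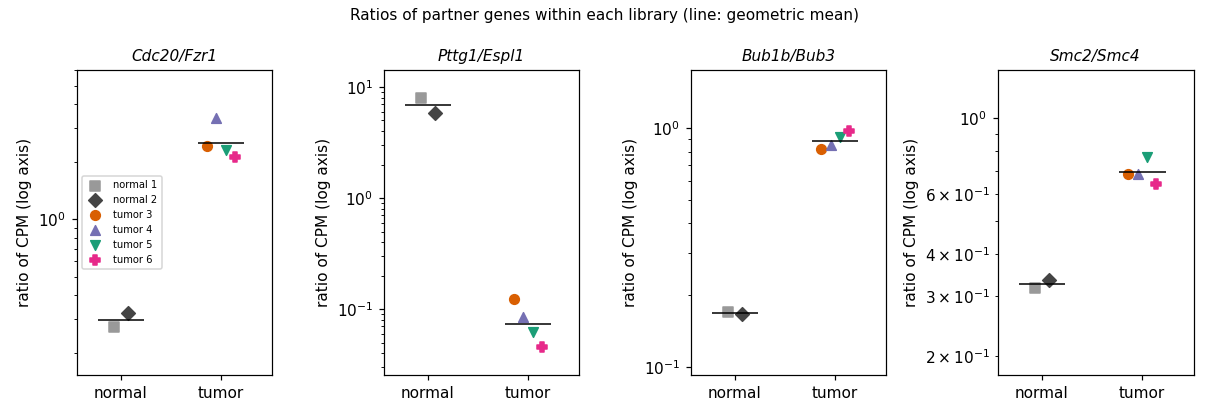
Each panel gives the ratio of 2 genes' CPM in every library on a log axis, normal on the left and tumor on the right, with a line at the geometric mean of each group. Pttg1 to Espl1 lies at 5.88 and 7.96 in normal lung and between 0.0456 and 0.124 in tumors, and the other 3 ratios are higher in tumors.

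Chromosome condensation genes rose 7 of 7. Top2a, the topoisomerase that untangles sister DNA, had the highest mean tumor level of the 50. It was at 505, 650, 790 and 624 CPM against 26.0 and 34.0 (21.4-fold), and Mki67 was above it in tumor 6. Top2a also had the highest mean per kb, at 123 ± 22.4 (SD, n = 4). In single tumors, Cenpa and Birc5 stood above it per kb in tumor 3, and Ube2c and Cenpa in tumor 4. Mki67, which coats mitotic chromosomes and keeps them apart, was at 457, 586, 764 and 644 CPM against 38.9 and 53.4. Of the condensin I subunits, Ncapg, Ncapd2 and Ncaph rose 18.8-fold, 12.7-fold and 10.4-fold. The ATPase subunits Smc2 and Smc4, which condensin II shares, rose 8.30-fold and 3.87-fold, and Smc4 was already at 92.9 and 88.9 CPM in normal lung. The ratio of Smc2 to Smc4 was 0.317 and 0.336 in normal lung and 0.686, 0.685, 0.770 and 0.642 in tumors. The tumor levels per kb were 81.6 ± 6.95 CPM for Smc4, 45.5 ± 7.33 for Smc2, 44.6 ± 10.3 for Ncapd2, 26.3 ± 2.92 for Ncapg and 22.4 ± 3.74 for Ncaph. Exons of Ncapg overlap those of Lcorl, which was 30.4 CPM in normal lung and 125 in tumors.

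**Figure D3:**
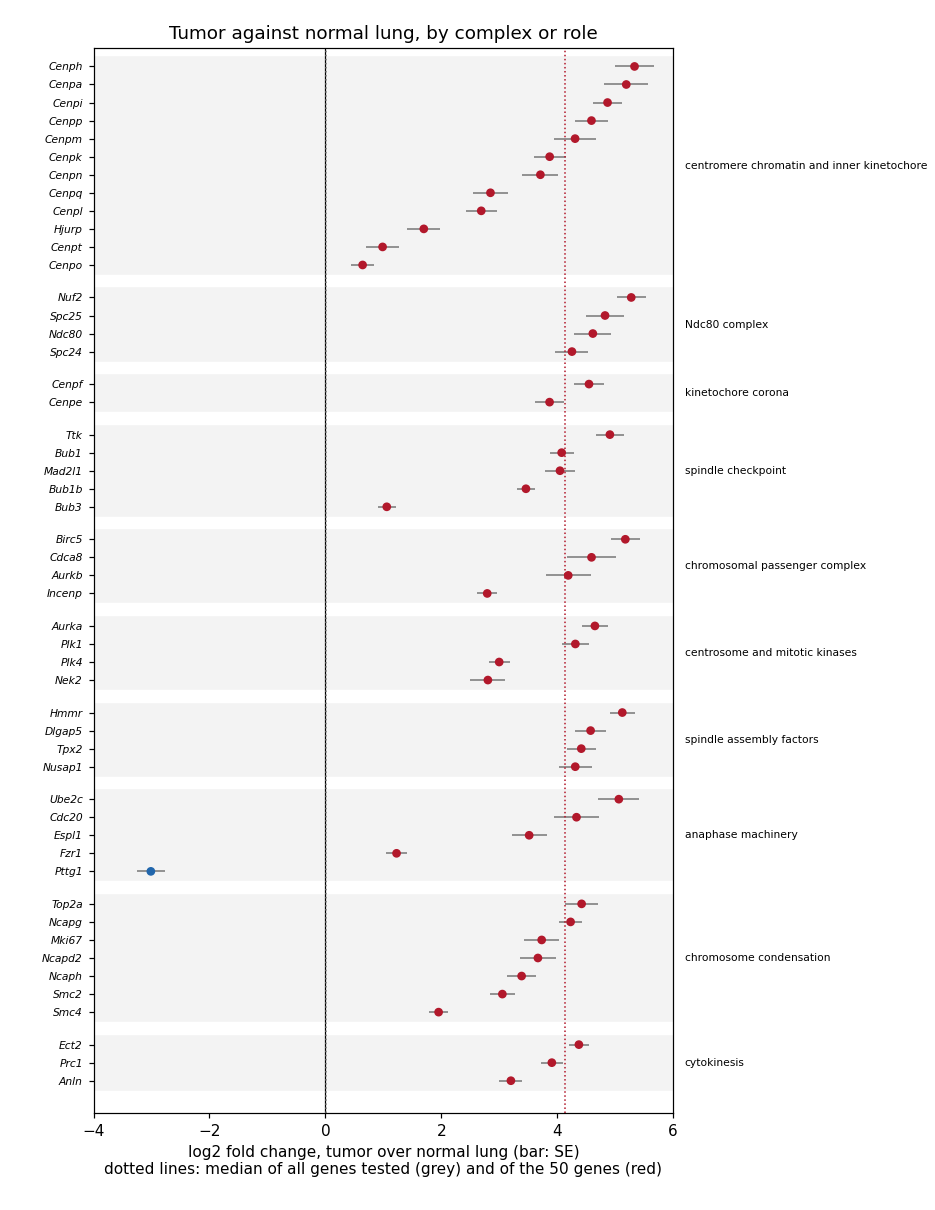
Points give the log2 fold change of each member, tumor over normal lung, with its SE as a bar, red where higher and blue where lower; the dotted lines are the medians of all genes tested (0.02) and of the 50 members (4.13). Cenpo, Cenpt, Bub3, Fzr1, Hjurp and Smc4 lie lowest among the genes that rose, and Pttg1 at -3.01 is the one gene left of 0.

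Above 20 CPM in normal lung were 8 members, Hjurp, Bub3, Fzr1, Pttg1, Smc2, Smc4, Top2a and Mki67, of which Top2a and Mki67 rose more than 13-fold. The median log2 fold change was 1.83 for these 8 and 4.61 for the 21 members under 5 CPM in normal lung. Over all members, log2 fold change had a Spearman correlation of -0.68 with log2 CPM in normal lung. The level in normal lung enters both values, so that part of this correlation is built in. The members lie on 18 chromosomes, 8 of them on chromosome 2.

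The 4 tumors were alike in these genes. The ratio of the highest to the lowest tumor had a median of 1.46 over the members, against 1.79 over the 17377 tested genes with a value above 0 in every tumor, and it stayed under 1.5 for 29 of the 50. It ran from 1.11 for Ect2 to 2.05 for Aurkb, the only member above 2. The members and all genes were not matched for expression level, and the part of low counts in the difference was not tested. For the replication genes and mitotic kinesins compared below, the same ratio ran from 1.13 to 1.85. Aurkb was at 35.2 CPM in tumor 3, 72.03 in tumor 4, 46.1 in tumor 5 and 55.5 in tumor 6. Tumor 5 was highest for 17 members, tumor 4 for 16, tumor 3 for 9 and tumor 6 for 8, against 21.5%, 28.6%, 24.8% and 25.1% of all genes tested.

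Tumor 4 led for Cenpa, Cenpq, Ndc80, Spc24, Mad2l1, Aurkb, Birc5, Cdca8, Aurka, Plk1, Plk4, Nek2, Dlgap5, Cdc20, Ube2c and Fzr1. Tumor 5 led for Cenpt, Cenpe, Cenpf, Bub1, Bub1b, Tpx2, Nusap1, Hmmr, Ncapg, Ncaph, Smc2, Smc4, Top2a, Mki67, Anln, Ect2 and Prc1. Transcript length moved with this order. Of 13 members over 4 kb, tumor 5 was highest for 9 and tumors 3 or 4 for none, and of 18 members under 2 kb it was highest for 1 and tumors 3 or 4 for 15. Across the 49 members with a settled length, the log2 ratio of tumor 5 to tumor 4 had a Spearman correlation of 0.52 with length. Across 15737 genes tested it was 0.27, there with lengths not limited to settled ones. For tumor 5 to tumor 3 the correlations were 0.67 and 0.41. For the log2 fold change of tumor over normal lung they were -0.30 and -0.09. The part of length, RNA quality or cell cycle phase in the order of the tumors was not tested, nor that of length in the fold changes.

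**Figure D4:**
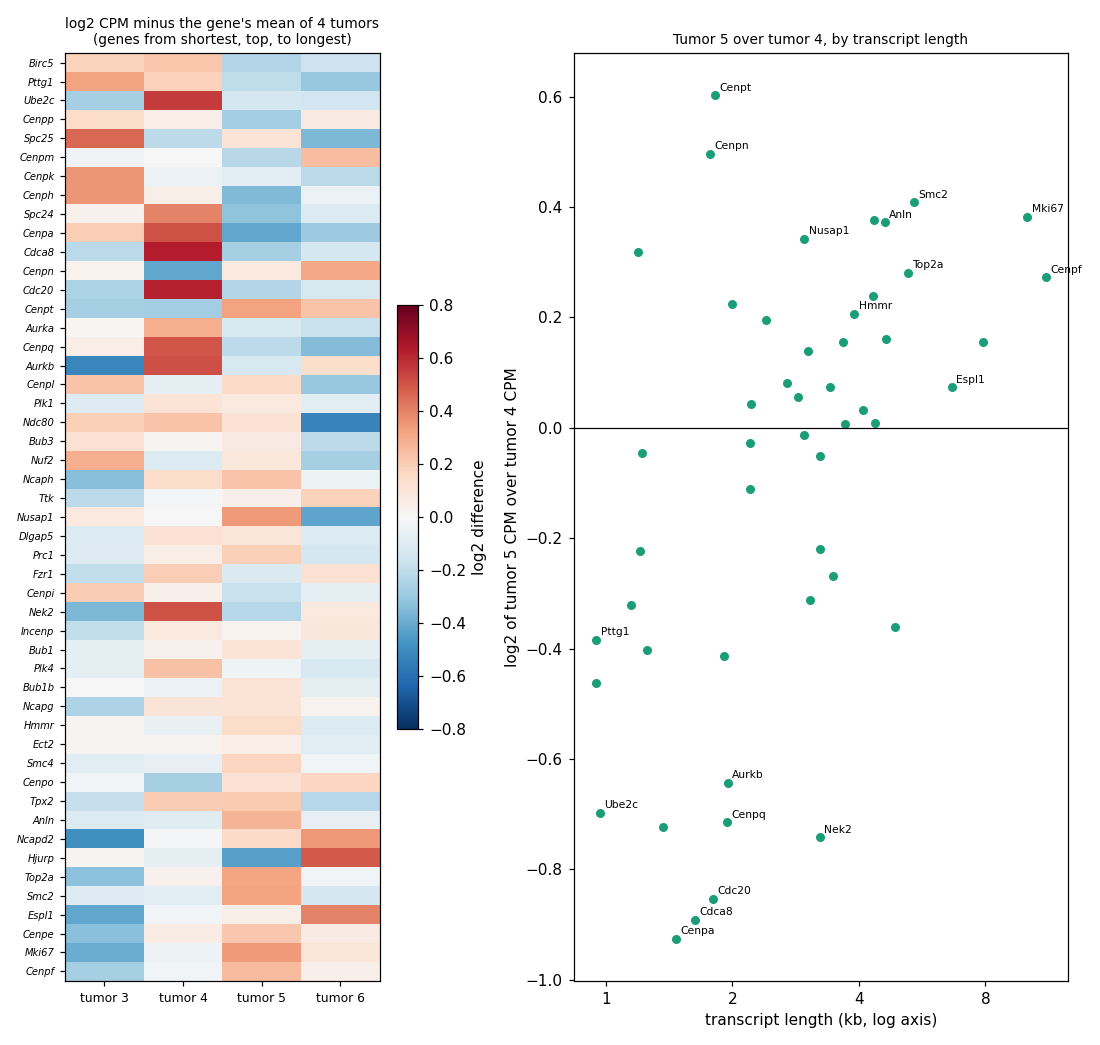
On the left, each row is a member (from shortest transcript at the top to longest) and the color its log2 CPM in a tumor minus the mean of the 4 tumors; on the right, the log2 ratio of tumor 5 to tumor 4 is plotted against transcript length on a log axis for the same 49 genes. Cenpa, Cdca8 and Cdc20, all under 2 kb, lie lowest on the right, and Mki67, Top2a, Cenpf and Smc2, all over 4 kb, lie above 0.

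Of 82 further genes of the mitotic machinery, 81 were tested. Their median log2 fold change was 2.00, beside 0.02 over all genes tested. Of the 81, 59 rose, 3 fell and 19 missed the threshold, beside 31.3% of all genes tested called higher and 32.6% lower. Aurkc, a kinase of meiosis, was the untested one, at no more than 0.0912 CPM in any library. Of 11 other inner kinetochore and licensing genes 9 rose, among them Oip5 (30.1-fold), which helps license centromeres for new CENP-A, Cenpv (10.5-fold) and Itgb3bp, the gene of CENP-R (6.97-fold). Cenpb, which binds a satellite DNA box, was 2.62-fold lower (log2 fold change -1.39 ± 0.15, adjusted p = 0.000406), from 264 and 261 to 93.2, 117, 90.4 and 99.4 CPM. Its exons overlap those of Spef1 on the same strand, which was at 25.2 CPM in normal lung and 10.5 in tumors. Stra13, the gene of CENP-X, stood at 14.4 ± 0.44 CPM in normal lung and 17.9 ± 3.69 in tumors and did not pass (adjusted p = 0.294). Of 9 other outer kinetochore genes 8 rose, with Casc5, the scaffold KNL1, at 30.0-fold and Ska3 at 19.5-fold. Of the MIS12 complex, Dsn1 and Nsl1 rose 11.6-fold and 14.5-fold, but Mis12 itself did not pass, at 34.8 ± 1.18 CPM in normal lung and 31.2 ± 3.88 in tumors. Exons of Mis12 overlap those of Derl2 on the other strand, at 58.2 and 39.4 CPM, and exons of Ska3 those of Sap18, at 61.6 and 71.4 CPM.

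Of 12 tested partners of the checkpoint and the passenger complex, 8 rose, among them Trip13, the ATPase that takes MAD2 complexes apart, at 42.3-fold, Sgol1, the shugoshin that guards centromeric cohesin, at 29.4-fold, Sgol2a, the other shugoshin, at 14.4-fold, and Bora, which helps Aurora A activate PLK1, at 13.9-fold. The other 4 were Mad1l1 (0.08 ± 0.17 on the log2 scale), Mad2l2 (0.42 ± 0.33), Zw10 (0.30 ± 0.15) and Mad2l1bp (-0.63 ± 0.28), none past the threshold. Zw10 passed with DESeq2 (adjusted p = 0.0484) and with upper quartile scaling (0.0433), Mad2l2 without tumor 6 (0.0342), its lowest tumor, and Mad2l1bp with limma voom (0.0415) and without tumor 4 (0.0494). Mad1l1, which recruits MAD2 to kinetochores, lay at 23.6 ± 0.29 CPM in normal lung and 24.97 ± 2.08 in tumors, and its exons overlap an antisense gene with no row.

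For the anaphase-promoting complex and its cofactors, the median log2 fold change was 0.85. Of the 14 genes 9 rose, against 31.3% of all genes tested, 1 fell, against 32.6%, and 4 did not pass. Over the 14 other settings the count higher ran from 6, without normal 1 or without normal 2, to 10, with DESeq2, with upper quartile scaling, without tumor 4 or without tumor 6. The largest were the cofactors Fbxo5, the inhibitor EMI1, at 10.0-fold and Ube2s, which extends chains, at 4.91-fold. The core subunits Cdc16 and Anapc5 rose 2.98-fold and 2.11-fold, and the cullin subunit gene Anapc2 fell from 67.1 and 69.5 to 36.3, 34.4, 45.6 and 38.8 CPM (log2 fold change -0.82 ± 0.16, adjusted p = 0.0043). The 4 subunits that did not pass were Anapc1 (0.44 ± 0.23 on the log2 scale), Anapc4 (0.30 ± 0.15), Anapc11 (0.11 ± 0.21) and Anapc13 (0.82 ± 0.37). Anapc4 passed with upper quartile scaling (adjusted p = 0.0489) and without tumor 6 (0.0404), and Anapc13 with DESeq2 (0.043) and without tumor 4 (0.039). Exons of Anapc13 overlap those of Cep63 on the other strand, at 26.5 CPM in normal lung and 28.9 in tumors.

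For cohesin, 5 of 13 rose, against 31.3% of all genes tested called higher, and 8 did not pass, with a median of 0.27. The 2 that rose by more than 4-fold were Cdca5, the gene of sororin, at 26.9-fold, and Esco2, the S phase acetyltransferase of cohesin, at 25.9-fold. Among the ring genes, not all of which are named here, Rad21 was 2.54-fold higher and Smc1a lay at -0.07 ± 0.18 on the log2 scale. Besides Smc1a, those that did not pass were Stag1 (0.27 ± 0.16), Stag2 (-0.26 ± 0.18), Pds5a (0.47 ± 0.21), Wapal (-0.18 ± 0.17), Nipbl (-0.41 ± 0.20), Mau2 (0.16 ± 0.17) and Esco1 (-0.05 ± 0.18), all as log2 fold changes. Pds5a passed under 4 settings (adjusted p from 0.0242 to 0.0463) and Nipbl without tumor 5 (0.0472). The cohesin count was 3 without normal 1 or without normal 2 and at most 6 under any setting, and Pds5b was a gene that missed the threshold in both cases (adjusted p = 0.0818 and 0.0791).

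All 3 condensin II genes rose, Ncapg2 by 11.05-fold, Ncapd3 by 3.09-fold and Ncaph2 by 1.93-fold. Exons of Ncaph2 overlap those of Sco2 and Tymp on the other strand, at 13.8 and 10.96 CPM in normal lung and 27.3 and 17.9 in tumors. Of 19 other genes of the spindle, centriole and cytokinesis 17 rose, led by Pbk, a mitotic kinase, at 58.4-fold, with Ckap2, a microtubule stabilizer, at 31.6-fold, Racgap1, the partner of Ect2 in the midzone, at 28.0-fold, and Melk, a kinase, at 26.8-fold. Numa1, which tethers spindle poles and is also a nuclear matrix protein, was lower, from 256 and 248 to 119, 134, 179 and 176 CPM (log2 fold change -0.73 ± 0.20, adjusted p = 0.0185). Its call was lost without normal 1 (adjusted p = 0.0985) and without normal 2 (0.0785). Exons of Numa1 overlap those of Il18bp on the other strand, at 6.44 CPM in normal lung and 13.4 in tumors. Cenpj, a centriole protein despite its symbol, stood at 12.5 ± 0.16 and 18.1 ± 1.87 CPM and did not pass (adjusted p = 0.0556), but did with DESeq2, limma voom, RLE or upper quartile scaling, the stricter filter, non-coding and histone genes removed, or without tumor 6 (adjusted p from 0.00949 to 0.0443).

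**Figure D5:**
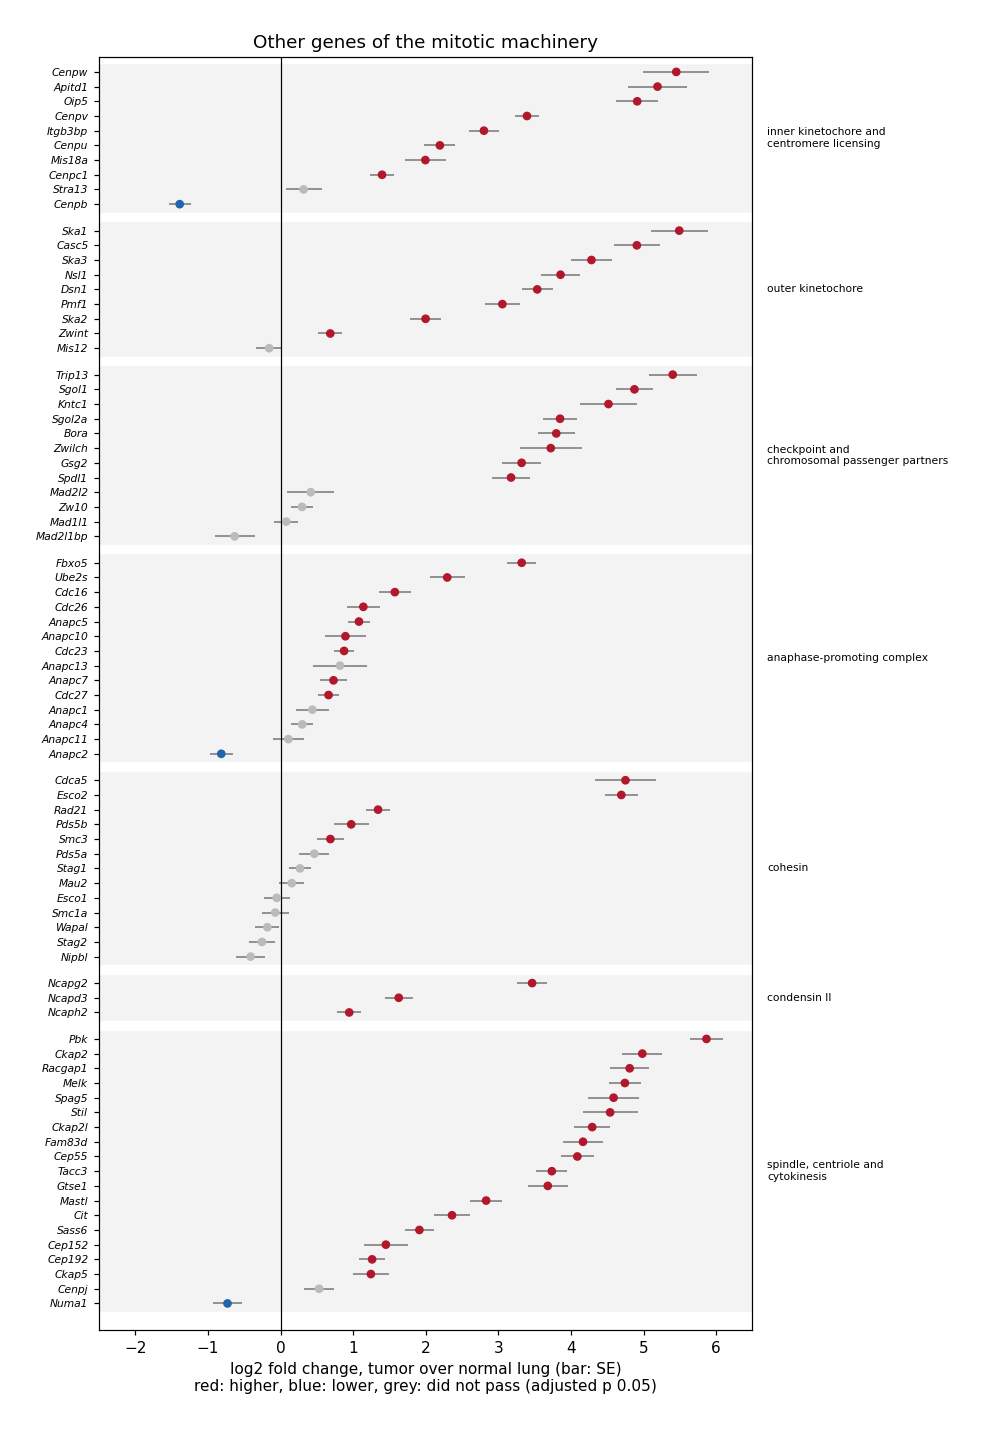
Log2 fold changes (tumor over normal lung) of 80 of the 81 further genes tested, with SE bars, by complex; red rose, blue fell and grey did not pass. Cohesin and the anaphase-promoting complex have medians of 0.27 and 0.85, and the spindle, centriole and cytokinesis genes one of 3.74.

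Side by side with the 2 gene groups nearest in role, the 12 mitotic kinesins all rose with a median log2 fold change of 4.15, and the 29 genes of the replication machinery all rose with a median of 2.81, against 49 of 50 and 4.13 for the members. The difference between these groups was not tested.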

How the data were processed

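RNA of 6 flash-frozen samples was sequenced from poly(A)-selected NEBNext Ultra II libraries in 1 batch, per the labels. The deposited values are raw read counts per gene symbol, and the labels name TPMCalculator as the authors' counter. Per the submitters' processing notes, with no role or order stated, mm9, STAR 2.5.4a, Trimmomatic 0.36, Trim Galore, R 3.5.1 and DESeq2 1.22.2 were also used. The annotation and the strand setting behind the counts are not stated in those sources.

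Groups follow the sample titles (2 normal, 4 tumor), and each library names its own mouse. All genes were tested with edgeR 4.0.16 (quasi-likelihood) in R 4.3.3, after filterByExpr (minimum count 10, total 15) and TMM scaling, adjusted by Benjamini-Hochberg over 18027 genes at 0.05. The test was run on simulated counts in which few genes were changed, so that its behavior under the many calls of these data was not checked. The SE is the log2 fold change over the square root of F. Transcript lengths are the longest APPRIS principal transcript in GENCODE M21 (GRCm38), called settled where the shortest lay within 1.5-fold. Motifs were counted in the first RefSeq window of each gene. Alternatives were RLE, upper quartile and total-count scaling, no filter, limma 3.58.1 voom, DESeq2 1.42.0, a filter of 1 CPM throughout 1 group, removal of 1123 non-coding and histone rows, and leaving out each library. Members and lists were chosen with earlier results of these data known. All members are named, and of each further list the called genes with the 4 smallest p per direction and every gene that did not pass or went against the majority direction of its calls. Of the further genes, 1 enters the counts and medians but is not reported here by itself.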

Additional observations from a re-analysis of the deposited data

Results flagged for a closer look

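In a set of 98 named genes, 8 had 1 tumor far from the other 3 on the log2 CPM scale (a gap to the nearest tumor above Dixon's 95% critical share of the range). Chance flags about 1 gene in 20. Among the members, Cdc20 (203 CPM against 111 to 121), Cdca8 (72.1 against 38.9 to 42.4) and Ube2c (143 against 80.9 to 88.1) were high in tumor 4. Smc2 (305 CPM against 222 to 230) and Anln (125 against 95.9 to 98.6) were high in tumor 5, and Ndc80 (40.2 CPM against 63.2 to 68.2) was low in tumor 6. Cdc20, Cdca8 and Ube2c have transcripts under 2 kb, and Smc2 and Anln have transcripts over 4 kb. This follows the order by length between tumors 4 and 5 given above, and the part of length in these flags was not tested. Of the further genes, Mad2l2 (7.41 CPM against 13.6 to 14.4) and Cenpj (15.3 against 18.9 to 19.2) were low in tumor 6.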

How the results depend on the processing

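Over 14 alternative settings, 48 of the 50 members kept direction and call in each, and 47 to 49 members rose, with a median log2 fold change of 3.97 to 4.25. The others were Cenpo and Cenpt, and no called value of a named gene moved by more than 1.5-fold. Without normal 1 or normal 2, where the lone normal library is assumed to vary as the tumors do, calls over all genes dropped to 3373 and 3740 higher. Leaving out each library in turn gave 3373 to 5912 higher over all genes, 3 to 6 cohesin genes higher and 0 to 1 gene of the spindle, centriole and cytokinesis list lower, and over the 14 settings 53 to 63 further genes rose and 2 to 4 fell. Upper quartile scaling moved the median of all genes to 0.14 and no filter to 0.12 on the log2 scale. The labels share no replicate number between groups. With 2 normal libraries the spread of normal lung is poorly known, reads of overlapping genes cannot be told apart, and 61.2% of counts from 1 to 10 were even, so that counts may not be independent molecules.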
